A study of Mus musculus with 4 samples.

Results

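Cish, Socs1, Socs2, Socs3, Pim1, Pim2, Stat3 and Stat5a, genes that T cells turn on or act through when a cytokine binds its receptor, were followed in T cells from mouse melanoma. They were taken by symbol from the gene rows of the count tables, 8 of 32285 genes, and each symbol had 1 row. Single-cell RNA and T cell receptor libraries had been made from tumor-infiltrating lymphocytes of mice whose T cells lack VISTA, an inhibitory checkpoint protein encoded by Vsir, and of their littermates. There was 1 gene expression library per genotype, each from a pool of mice, so the spread between mice is unknown, no difference between genotypes was tested, and every interval given is a 95% interval for counting error only.

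The WT group carried Vsir fl/fl alone and the VISTA-KO group Vsir fl/fl with CD4-Cre, both on the C57BL/6 background. The Cd4 promoter is active in the thymus before CD4 and CD8 T cells part, so this Cre acts in both lineages and in regulatory T cells, and is not meant to act in myeloid cells. Per the study's methods, mice of 6 to 8 weeks bore B16 melanoma, received a TRP2 peptide vaccine with CpG and R848 as adjuvants on day 3, and received 100 µg of a CTLA-4 blocking antibody on days 4 and 8. Both groups therefore share the tumor, the vaccine and the CTLA-4 blockade, and there was no untreated arm in these libraries. Lymphocytes were collected 18 days after treatment, and CD4+ and CD8+ cells were sorted together into 1 library per genotype. The sources give the size of a pool as 5 to 6 mice in one place and 6 to 8 tumors in another.

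Cytokines such as IL-2, IL-7, IL-15 and IL-6 act through Janus kinases, which phosphorylate STAT proteins, and the STATs move to the nucleus and bind DNA. STAT3 serves mainly the IL-6, IL-10 and IL-21 family, and STAT5A, with its near-identical paralog STAT5B, the IL-2 family. Among the genes they switch on are inhibitors of the same signal: CIS, the product of Cish, and SOCS1, SOCS2 and SOCS3, which bind receptors or kinases through an SH2 domain and recruit a ubiquitin ligase through their SOCS box. The PIM kinases are also made on a cytokine signal, but they favor survival and protein synthesis instead of shutting the pathway down. Messenger RNA of these genes is short-lived, so its level is often used to read recent signaling, although the RNA is not itself a measure of phosphorylated STAT protein.

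The DNA next to annotated start sites of 3 of the inhibitors holds letters of the kind that such proteins are known to bind. The stretches shown are motif matches, and whether the proteins bind or act at them was not measured here. RefSeq windows of GRCm38.p6, from 250 bases before to 50 bases after each annotated start, were searched on both strands for TTCNNNGAA, the palindrome bound by STAT dimers, and for GAAANNGAAA, the repeat bound by interferon-induced factors. Each stretch below runs 5′ to 3′ on the strand of its gene, and the capitals mark the matched letters.

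Cish: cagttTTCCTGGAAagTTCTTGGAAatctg

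Socs3: cagccTTCTTAGAAgggaggggggggaaag

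Socs1: tgccgGAAAGAGAAACCGAAAgcgggggtg

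The Cish stretch lies on the plus strand at chr9:107296654-107296683, and its 2 STAT palindromes begin 0 and 11 bases after the annotated start, inside the first bases of the transcript. The Socs3 stretch, on the minus strand at chr11:117969496-117969525, has 1 palindrome that begins at position -154 relative to the start of its window's transcript. That window lies inside the annotated span of Socs3, which on this strand begins at base 117970336. In Socs1, minus strand, chr16:10785595-10785624, there was no STAT palindrome, and 2 overlapping GAAANNGAAA repeats begin at positions -83 and -77. A window of this length holds TTCNNNGAA in 8.30% of 32851 promoter windows and 2 or more copies in 0.457%, and it holds GAAANNGAAA in 3.44% and 2 or more in 0.225%. Neither motif was found in the windows of Pim1, Pim2, Stat3 and Stat5a, which says only that these letters are not in these windows. Socs2 had no entry.

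Cells were assigned to kinds by their unique molecular identifiers (UMIs) of marker genes after the study's filters of at least 600 genes and under 30% mitochondrial UMIs. CD8 cells (Cd8a or Cd8b1 detected, Cd4 not) numbered 5482 in WT and 4301 in VISTA-KO, conventional CD4 cells (Cd4 detected, Foxp3 not) 1661 and 2983, regulatory cells (Cd4 and Foxp3 detected) 1491 and 1260, and cells with 2 or more Siglech UMIs 221 and 138. The 4 T cell receptor and CD3 markers summed to 4140 to 4726 CPM, the UMIs of a gene per 1000000 summed UMIs, in the 3 T cell kinds against 1260 and 631 in the Siglech cells. The Siglech cells carried 12568 and 14638 CPM of a plasmacytoid dendritic cell marker list that reached at most 362 in the T cell kinds. Melanoma markers summed to as much as 225 CPM in a T cell kind, higher in WT for conventional CD4 cells and higher in VISTA-KO for CD8 and regulatory cells. Total UMIs were 72098984 in WT and 59916814 in VISTA-KO, and 144 cell barcodes were found in both libraries. Vsir itself, the targeted gene, had 112.5 CPM in WT and 111.7 in VISTA-KO CD8 cells, 114 and 120 in conventional CD4 cells, 114 and 118 in regulatory cells and 69.5 and 50.3 in Siglech cells. A gene count does not tell which exons were read, so it does not check the deletion, and the genotypes here are those of the library labels.

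**Figure D1:**
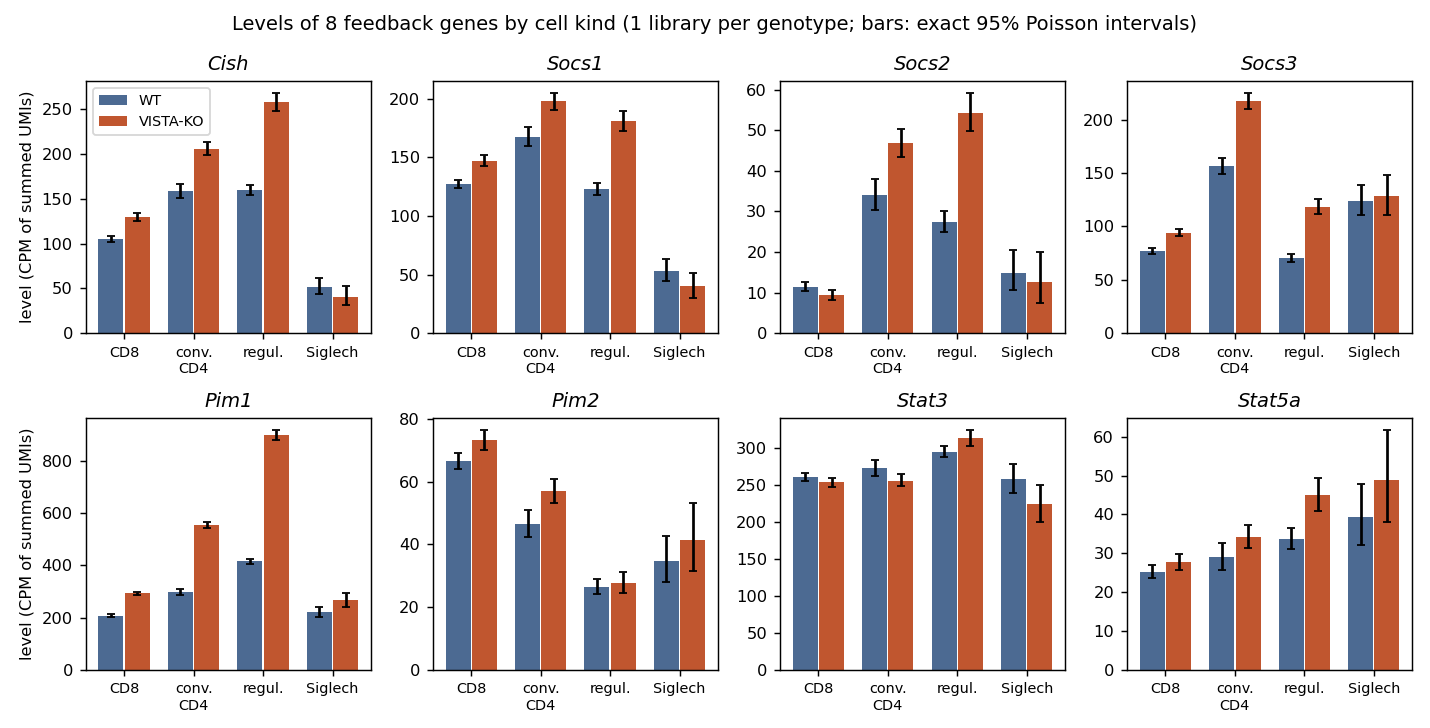
Level of each of the 8 genes (CPM of summed UMIs, linear axes from 0) in CD8, conventional CD4, regulatory and Siglech cells of the WT and VISTA-KO libraries, 1 library each, with bars of error that are exact 95% Poisson intervals for counting error only. Pim1 in regulatory cells stands at 417 CPM in WT and 901 in VISTA-KO, and Stat3 is nearly level across kinds and libraries.

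A gene was counted as higher or lower in the library labelled VISTA-KO when its log2 ratio of CPM plus 5 was at least 0.5 in size, with at least 20 CPM in 1 library. By that rule 5 of the 8 genes were higher in regulatory cells (Cish, Socs1, Socs2, Socs3 and Pim1), where 2.77% of 6274 genes were higher and 2.44% lower. In conventional CD4 cells 1 of the 8 was higher (Pim1), against 1.41% of 6261 genes higher and 1.47% lower. None of the 8 passed in CD8 cells, where 1.15% of 6065 genes were higher and 0.709% lower, or in Siglech cells, where 3.73% of 6405 genes were higher and 5.31% lower. None of the 8 was counted as lower in any kind. The median log2 ratio over the 8 genes was 0.17 in CD8, 0.32 in conventional CD4, 0.61 in regulatory and -0.06 in Siglech cells, beside -0.03, -0.04, -0.01 and -0.02 over all genes past the level filter. At a lower bar of log2 0.25, 3 of the 8 genes were past it in CD8 cells, 5 in conventional CD4 cells and 6 in regulatory cells. The shares of all genes above are for the bar of 0.5 and do not apply to these counts. More of all genes pass the lower bar, and their share is not given here.

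**Figure D2:**
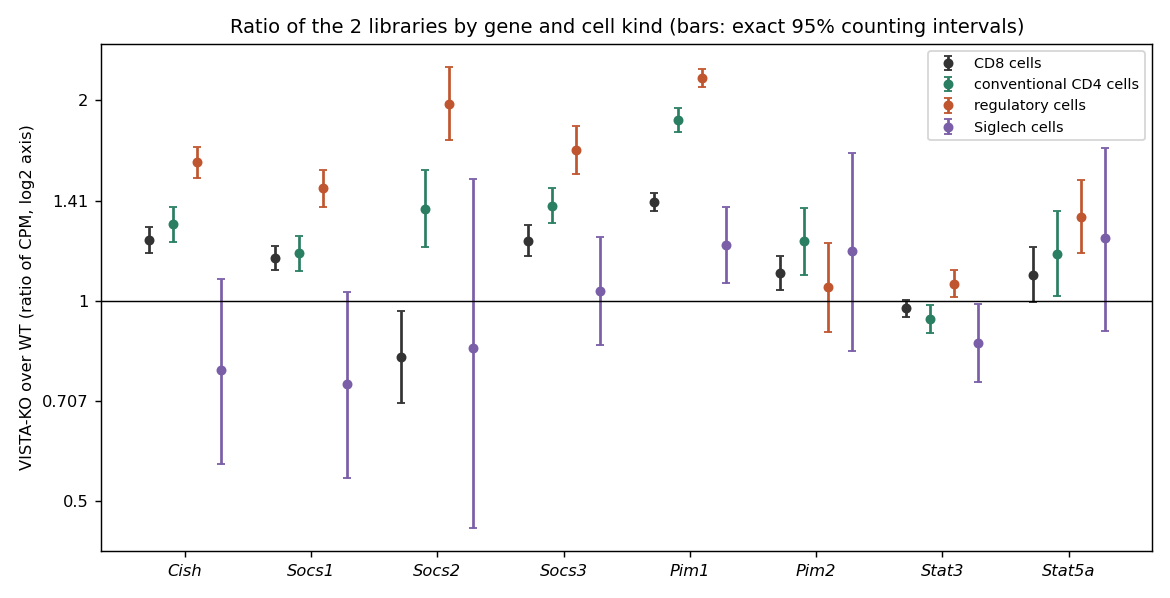
Ratio of VISTA-KO over WT CPM for each gene (log axis) in the 4 kinds of cells, with exact 95% intervals for counting error only. In regulatory cells the ratios of Cish, Socs1, Socs2, Socs3 and Pim1 lie between 1.48 and 2.16, in CD8 cells the ratio of Pim1, at 1.41, is above the other 7, and Stat3 lies close to 1 throughout.

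Cish encodes CIS, an inhibitor that in T cells dampens signals of the T cell receptor and of the IL-2 family. It had 105 CPM in WT and 130 in VISTA-KO CD8 cells, a ratio of 1.23 (1.18 to 1.29). In conventional CD4 cells it had 158 and 206, a ratio of 1.30 (1.23 to 1.39). In regulatory cells it had 160 and 258, a ratio of 1.61 (1.53 to 1.71). The VISTA-KO value was thus above the WT value in each T cell kind, by the widest margin in regulatory cells, whereas in Siglech cells the values were 51.6 and 40.5 and the interval of the ratio, 0.567 to 1.08, took in 1. Siglech cells held the least Cish in both libraries. They also held 1260 CPM of the T cell markers in WT against 631 in VISTA-KO. How much of their Cish and Socs1 was T cell RNA was not tested. In VISTA-KO the order regulatory, conventional CD4, CD8, Siglech had no overlapping neighbors and spanned 6.36-fold, and in WT the same order held except that regulatory and conventional CD4 cells overlapped.

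To compare the share of cells with a Cish UMI at 1 depth, each cell was thinned to 2000 UMIs. Of thinned CD8 cells, 19.0% of WT (interval 17.9 to 20.1) and 22.2% of VISTA-KO cells (interval 20.9 to 23.5) had one, against 39.1% and 42.9% before thinning. In regulatory cells they were 31.1% and 40.4% thinned, while without thinning they were 71.8% and 71.4%, the WT cells having a median of 8739 UMIs and the VISTA-KO cells 5908. In Siglech cells the thinned shares were 3.64% (1.58 to 7.04) and 5.11% (2.08 to 10.2), the lowest of the 4 kinds in each library, at median depths of 9181 and 9486 UMIs before thinning. No kind of cell here can be taken to lack any of the 8 genes, so the share that free RNA in the droplets gives is unknown.

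Socs1 encodes the broad inhibitor of interferon and IL-2 family signals, which blocks the Janus kinases themselves. CD8 cells had 127 CPM in WT and 147 in VISTA-KO, a ratio of 1.16 (1.11 to 1.21), and conventional CD4 cells had 168 and 198, a ratio of 1.18 (1.11 to 1.25). Regulatory cells had 123 and 181, a ratio of 1.48 (1.38 to 1.57). The gap in regulatory cells moved them in the order: in WT they overlapped with CD8 cells below conventional CD4 cells, and in VISTA-KO they lay above CD8 cells. Siglech cells, at 53.1 and 39.8 CPM, were lowest in both libraries, with a ratio of 0.750 (0.541 to 1.03). Thinned to 2000 UMIs, 22.0% of WT and 29.4% of VISTA-KO regulatory cells had a Socs1 UMI, and 23.0% and 25.0% of CD8 cells did (56.9% and 54.7%, and 44.7% and 48.8%, unthinned).

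Socs2 encodes an inhibitor best known for restraining growth hormone signals. By level over the whole gates, its values ran in different directions between CD8 cells and the CD4 kinds. The direction in CD8 cells is not settled. CD8 cells had 11.3 CPM in WT and 9.34 in VISTA-KO, under the level of 20 CPM asked for a count, with a ratio of 0.824 (0.703 to 0.964). A single WT CD8 cell held 36 of the 417 Socs2 UMIs there, a spread between cells that the counting interval does not cover. Conventional CD4 cells had 34.0 and 46.8 CPM, a ratio of 1.38 (1.21 to 1.57), and regulatory cells had 27.4 and 54.3, a ratio of 1.98 (1.74 to 2.25). Siglech cells had 14.8 and 12.6 CPM from 38 and 18 UMIs, too few to set a direction. In both libraries CD8 cells had the lowest Socs2 level, overlapping with Siglech cells, and both CD4 kinds lay above them. The thinned share of cells with a UMI among regulatory cells was 6.15% in WT (interval 4.97 to 7.52) and 11.3% in VISTA-KO (interval 9.60 to 13.3), against 1.73% and 1.60% of CD8 cells, and unthinned 19.9%, 24.5%, 4.27% and 4.35%.

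Socs3 encodes the inhibitor of receptors that share gp130, such as that of IL-6. CD8 cells had 76.5 CPM in WT and 94.2 in VISTA-KO, a ratio of 1.23 (1.17 to 1.30). Conventional CD4 cells had 157 and 218, a ratio of 1.39 (1.31 to 1.48). Regulatory cells had 70.3 and 118, a ratio of 1.68 (1.55 to 1.83). Siglech cells did not rank last for Socs3, unlike for Cish and Socs1, and had 124 and 129 CPM, a ratio of 1.04 (0.859 to 1.25). Conventional CD4 cells ranked first in both libraries. Regulatory cells overlapped with CD8 cells at the foot of the order in WT and with Siglech cells in VISTA-KO. Thinned shares of cells with a UMI were 13.2% and 15.7% in CD8, 23.8% and 28.8% in conventional CD4 and 10.9% and 17.9% in regulatory cells, beside 26.3% and 30.6%, 39.4% and 44.8%, and 36.3% and 38.7% unthinned.

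Pim1 encodes a kinase that promotes survival and protein synthesis and is turned on by cytokines and by the T cell receptor. Its ratio was above that of the other 7 genes in each T cell kind. CD8 cells had 208 CPM in WT and 292 in VISTA-KO, a ratio of 1.41 (1.37 to 1.45) and a log2 ratio of 0.48, just under the bar of 0.5. Conventional CD4 cells had 298 and 556, a ratio of 1.87 (1.79 to 1.95). Regulatory cells had 417 and 901, a ratio of 2.16 (2.10 to 2.23). Only 74 of 6065 genes had a larger ratio in CD8 cells, 23 of 6261 in conventional CD4 cells and 27 of 6274 in regulatory cells. In Siglech cells, 220 and 267 CPM gave a ratio of 1.21 (1.06 to 1.39), which 872 of 6405 genes exceeded. The thinned share of cells with a Pim1 UMI was 28.5% and 36.3% in CD8, 37.8% and 55.8% in conventional CD4 and 55.5% (52.9 to 58.1) and 75.6% (73.1 to 78.0) in regulatory cells. Unthinned, these shares were 51.5% and 59.9%, 58.7% and 72.2%, and 88.9% and 93.7%.

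**Figure D3:**
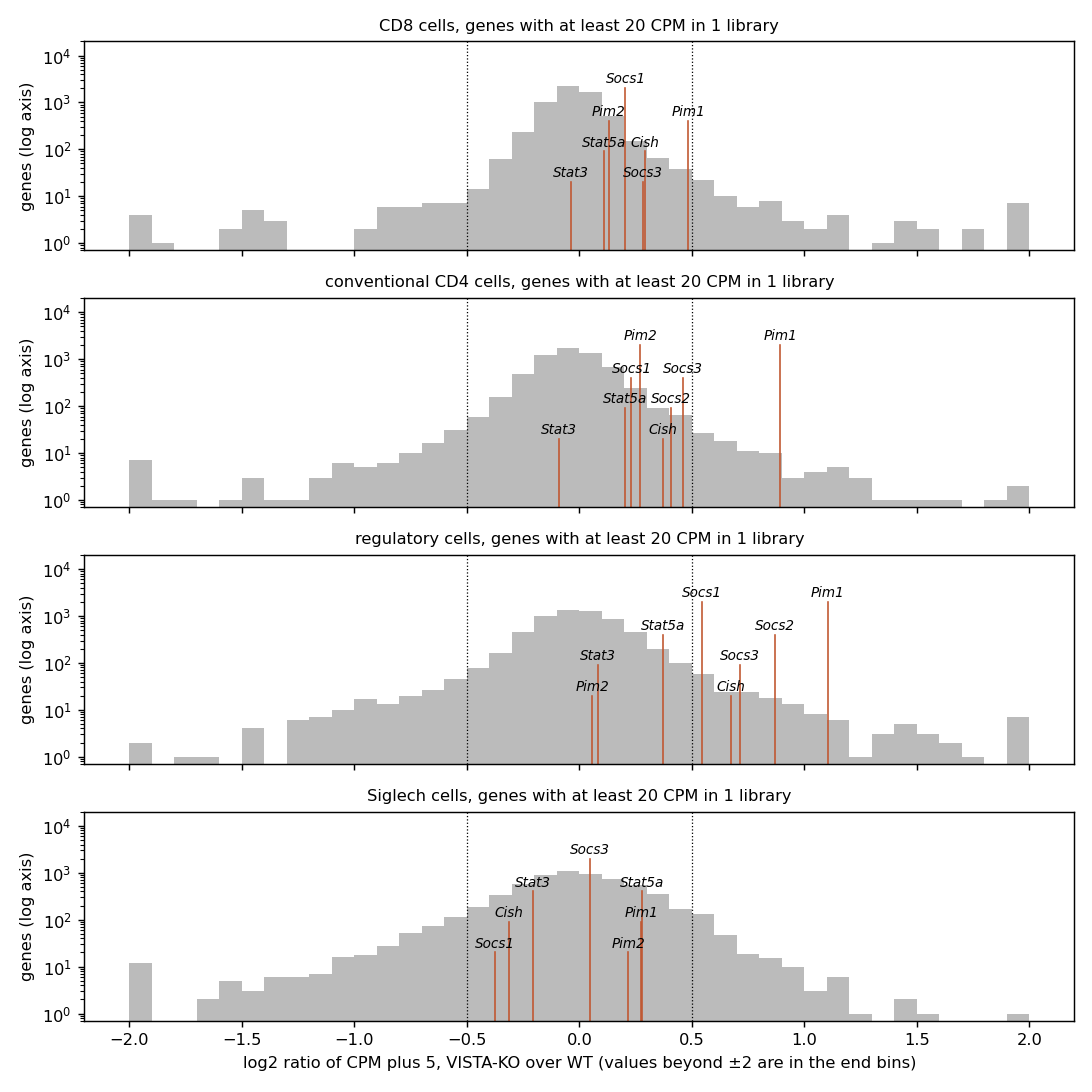
Distribution of log2 ratios of VISTA-KO over WT (CPM plus 5) over all genes past the level filter in each kind of cells (log axis of gene counts), with those of the 8 genes that pass the filter marked and dotted lines at the bar of 0.5. In regulatory cells 5 of the 8 marks lie beyond 0.5 on the right, while in Siglech cells the marks lie on both sides of 0.

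Pim2, a kinase of the same family that is made in resting and homeostatic T cells, did not follow Pim1. CD8 cells had 66.5 CPM in WT and 73.3 in VISTA-KO, a ratio of 1.10 (1.04 to 1.17), and conventional CD4 cells had 46.5 and 57.0, a ratio of 1.23 (1.09 to 1.38). Regulatory cells had 26.4 and 27.6, a ratio of 1.05 (0.897 to 1.22), and Siglech cells had 34.8 and 41.2. CD8 cells were highest in both libraries and regulatory cells, the kind highest for Pim1, were lowest, overlapping with Siglech cells in WT. The third kinase of the family, Pim3, had 34.2 and 48.1 CPM in CD8 cells, a ratio of 1.41, 32.6 and 42.9 in conventional CD4 cells, a ratio of 1.32, and 30.3 and 47.6 in regulatory cells, a ratio of 1.57. Its ratio was 0.960 in Siglech cells, on 26.9 and 25.9 CPM. The interval of the Pim3 ratio in conventional CD4 cells (1.15 to 1.51) overlapped with that of Pim2 and lay below that of Pim1.

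The STAT genes themselves differed little. Stat3 had 261 CPM in WT and 254 in VISTA-KO CD8 cells, with an interval of the ratio from 0.944 to 1.00, and 273 and 256 in conventional CD4 cells, a ratio of 0.939 (0.893 to 0.986). Regulatory cells had 295 and 313, a ratio of 1.06 (1.01 to 1.11), and Siglech cells had 259 and 224, a ratio of 0.865 (0.755 to 0.990). Its highest level was 1.14-fold its lowest across the kinds in WT and 1.40-fold in VISTA-KO, the narrowest span of the 8 genes in each library. Stat5a had 25.3 and 27.7 CPM in CD8, 29.1 and 34.2 in conventional CD4 and 33.7 and 45.0 in regulatory cells, with a ratio of 1.34 (1.18 to 1.52) in the last. Stat5b, its neighbor and near-identical paralog, had a ratio of 0.980 in CD8 cells on 48.9 and 47.9 CPM, 1.15 in conventional CD4 cells on 70.8 and 81.2, and 1.20 in regulatory cells on 66.1 and 79.4. Reads that fit both Stat5 genes cannot be assigned, so the split between them is uncertain.

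Neither CD4 gate held the same cells in both libraries. In conventional CD4 cells a Cd8a or Cd8b1 UMI was present in 497 of the WT cells (29.9%) and 587 of the VISTA-KO cells (19.7%), and Cd8a had 379 and 187 CPM. Without these cells the ratio of Socs3 in conventional CD4 cells was 1.16, against 1.39 with them, and 1.05 when the cells were also thinned, and that of Socs2 was 1.33 and, thinned, 1.04. Pim1 there had a ratio of 1.77 without them and 1.82 when also thinned. The gap was wider in the regulatory gate. Such a UMI was present in 759 of the WT regulatory cells (50.9%) and in 367 of the VISTA-KO cells (29.1%). In WT these cells had a median of 13684 UMIs, against 5234 in the WT regulatory cells without a CD8 UMI, and they had 2011 CPM of Nkg7, a gene of cytotoxic lymphocytes, against 895. In VISTA-KO the medians were 9150 and 5137 UMIs and the Nkg7 levels 1627 and 831. Cells with CD8 UMIs had the lower levels of Pim1 in both libraries (356 against 563 CPM in WT, 723 against 1029 in VISTA-KO) and of Cish (138 against 212, 219 against 286). The share of such cells therefore moves with the genotype difference in regulatory cells, and the values without them bear on it directly. Among regulatory cells without a CD8 UMI the ratio of VISTA-KO over WT was 1.83 for Pim1, 1.61 for Socs2, 1.37 for Socs1 and 1.35 for Cish, each lower than with all cells, whereas it was 1.81 for Socs3. Pim1, Socs2 and Socs3, 3 of the 8 genes, were then past the bar of 0.5. The share of all genes past the bar in these cells is not given here, so this count has no background beside it. Among those with a CD8 UMI the ratio was 2.03 for Pim1, 1.91 for Socs2, 1.58 for Cish, 1.57 for Socs3 and 1.51 for Socs1, so all 5 genes had more in VISTA-KO on both sides of that split. Proliferating cells also differed, with an Mki67 UMI in 30.1% of WT and 21.1% of VISTA-KO regulatory cells, and without them the median log2 ratio over the 8 genes was 0.45.

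Depth was narrowed too, in an alternative chosen after the data were seen. Among regulatory cells of 2000 to 6000 UMIs the ratio of VISTA-KO over WT was 1.88 for Pim1, 1.43 for Socs3, 1.39 for Socs2, 1.28 for Socs1 and 1.22 for Cish. Pim1 was the 1 gene of the 8 past the bar, and the share of all genes past it in this window is not given here. Stat3 in that window had a ratio of 0.895. All 5 of the genes counted as higher in regulatory cells had a ratio above 1 under each of the 17 settings that recompute it, and the size of the ratio for the 4 inhibitors depended on which cells of the gate were taken.

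**Figure D4:**
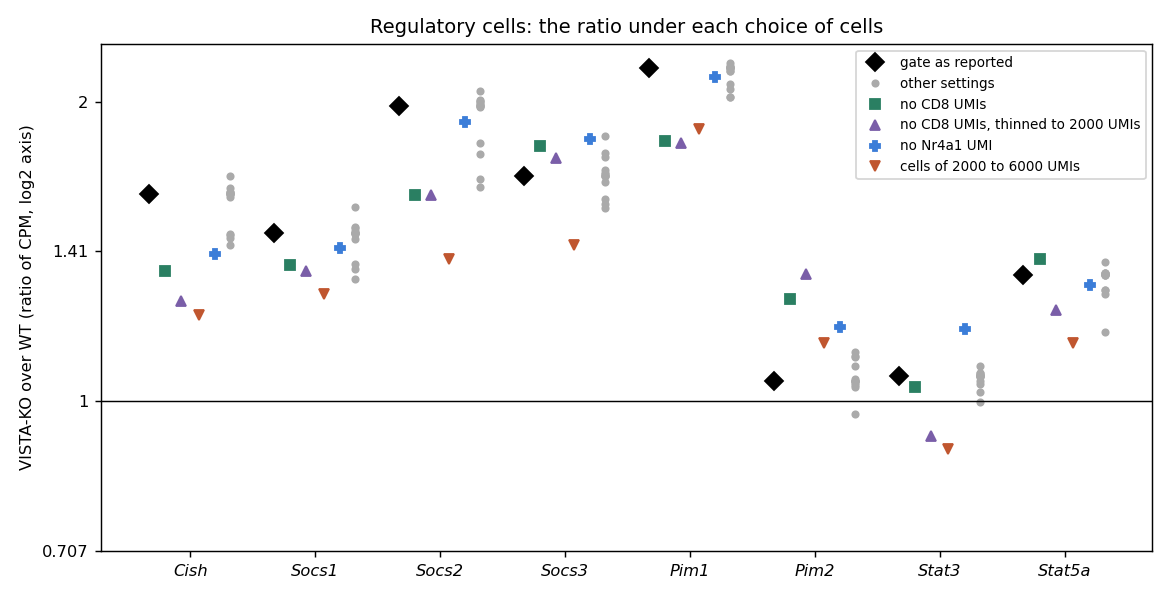
Ratio of VISTA-KO over WT CPM of each gene in regulatory cells (log axis) for the gate as reported (black diamonds) and for 17 other settings, of which those without CD8 UMIs, without Nr4a1 cells and with cells of 2000 to 6000 UMIs are colored and the others are gray. Pim1 lies between 1.82 and 2.19 over these settings, and Cish runs from 1.22 to 1.68.

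To see whether the differences followed cell states, cells of each kind were split by genes outside the 8. Pim1 was higher in VISTA-KO in each of 7 CD8 states, with ratios of 1.25 to 1.65, in each of 4 conventional CD4 states, with ratios of 1.73 to 2.01, and in each of 3 regulatory states, with ratios of 1.93 to 2.15, and each of these intervals lay above 1. Within CD8 cells the ratios were largest in Ccr7 cells without Pdcd1 (247 and 408 CPM, 1.65, 1.48 to 1.84) and in Il7r cells without Pdcd1 and Havcr2 (287 and 469 CPM, 1.63, 1.47 to 1.81). They were smallest in the Havcr2 cells with Pdcd1, which carry 2 receptors of exhausted cells (186 and 233 CPM, 1.25, 1.14 to 1.37), and in Mki67 cells (1.27). The intervals of the first pair and the second pair did not overlap, so the Pim1 difference was wider in these Ccr7 and Il7r states than in the Mki67 and Havcr2 states. A wide ratio was not particular to naive or memory markers. Cx3cr1 or S1pr5 cells had 1.56 (1.35 to 1.80), overlapping with the first pair, and Tcf7 cells with Pdcd1 had 1.33 (1.21 to 1.46). These differences between states were not tested over mice. The states also kept cells with CD8 UMIs in the CD4 gates and were not thinned, so they hold neither mix nor depth fixed. Regulatory Mki67 cells, which had the ratio of 2.15, had median depths of 16246.5 UMIs in WT and 8746.5 in VISTA-KO. Conventional CD4 Mki67 cells had 8798 and 6335.5.

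Cish was higher in VISTA-KO in 7 of 7 CD8 states (ratios of 1.18 to 1.34, with 6 intervals above 1), 4 of 4 conventional CD4 states (1.16 to 1.40, 2 intervals above 1) and 3 of 3 regulatory states (1.40 to 1.63). Its lowest level in CD8 cells was in Ccr7 cells without Pdcd1, with 35.0 CPM in WT and 46.6 in VISTA-KO, and the other CD8 states had 76.5 to 142 and 101 to 175. Socs3 was the reverse of Cish here. It was highest in those same Ccr7 cells, with 270 and 281 CPM, and among its lowest levels were those of Cx3cr1 or S1pr5 cells, with 36.1 and 41.5. The Socs3 ratio also changed sides between CD8 states, with 54.6 and 41.0 CPM in Havcr2 cells with Pdcd1, a ratio of 0.751 (0.619 to 0.910), but 118 and 157 CPM in Tcf7 cells with Pdcd1, a ratio of 1.34 (1.17 to 1.53). In conventional CD4 cells the Socs3 ratio was 1.85 (1.56 to 2.19) in Mki67 cells, on 75.9 and 140 CPM, and 0.913 (0.807 to 1.03) in cells with none of the state markers.

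**Figure D5:**
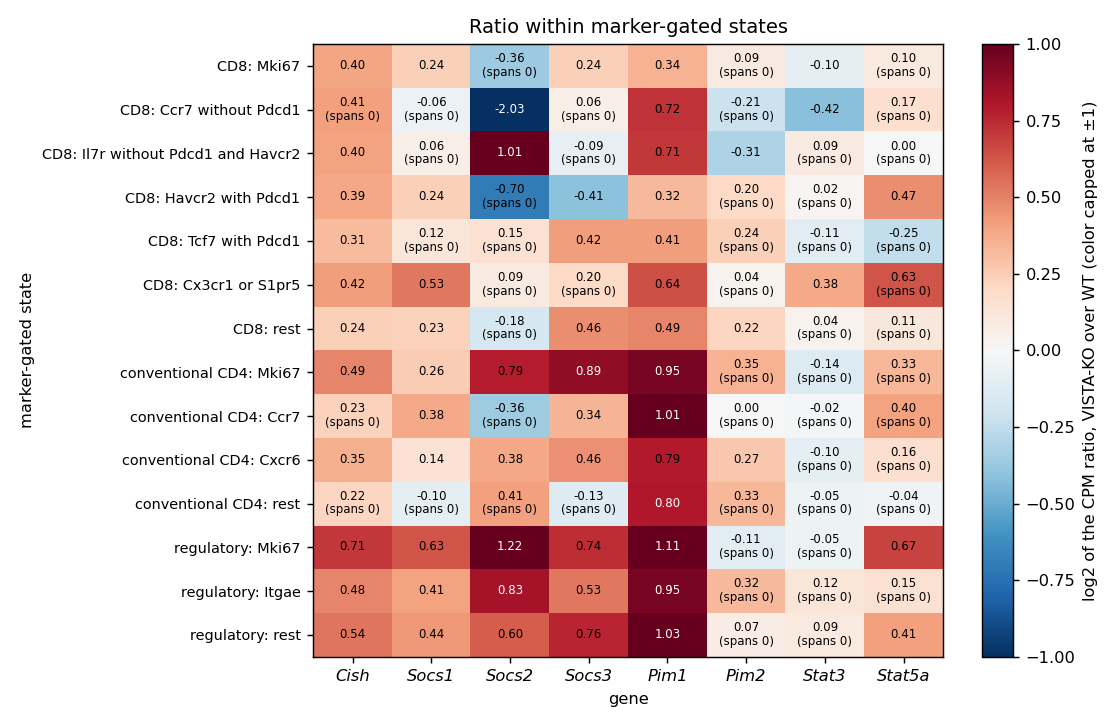
Log2 ratio of VISTA-KO over WT CPM of each gene (columns) in each marker-gated state with at least 50 cells per library (rows), as a color scale centered on 0 with the value printed in each square and a remark where its counting interval spans 0. Pim1 and Cish are positive in all T cell states shown, and Socs1, Socs2, Socs3, Pim2, Stat3 and Stat5a take both signs within CD8 cells.

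The genes also differed between cells of the CD8 gate with and without a UMI of a cytokine receptor. After thinning to 2000 UMIs, CD8 cells with an Il2ra UMI, the high-affinity chain of the IL-2 receptor, had 201 CPM of Cish in WT against 115 in cells without one, a ratio of 1.76 (1.34 to 2.27). In VISTA-KO they had 378 against 136, a ratio of 2.78 (2.24 to 3.40). Pim1 was likewise higher in Il2ra cells, with 471 against 207 CPM in WT and 819 against 298 in VISTA-KO, while Socs1 was level, with ratios of 1.00 and 1.01. These were 154 WT and 135 VISTA-KO cells, and Il2ra is itself known as a STAT5 target. The CD8 gate also held 343 WT and 174 VISTA-KO cells with a Foxp3 UMI. Il2ra was detected in 23.2% and 28.8% of thinned regulatory cells, against 2.97% and 3.28% of thinned CD8 cells. How far regulatory cells or mixed droplets make up the Il2ra cells of the CD8 gate was not tested.

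With the IL-7 receptor Cish turned in CD8 cells and Pim1 did not. CD8 cells with an Il7r UMI, 750 in WT and 809 in VISTA-KO, had less Cish than cells without one, 87.3 against 122 CPM in WT and 109 against 152 in VISTA-KO, with ratios of 0.715 (0.592 to 0.858) and 0.718 (0.608 to 0.843). They had more Socs3, 190 against 69.9 CPM in WT and 189 against 92.7 in VISTA-KO, with ratios of 2.72 (2.35 to 3.13) and 2.04 (1.77 to 2.34). Pim2 followed Socs3, with ratios of 1.97 and 1.36. Pim1 was higher in Il7r cells as it was in Il2ra cells, with 299 against 200.4 CPM in WT, a ratio of 1.49 (1.34 to 1.65), and 451 against 283 in VISTA-KO, a ratio of 1.59 (1.46 to 1.74). Within the Il7r cells Socs3 was the same in both libraries to within counting error (a VISTA-KO over WT ratio of 0.995, 0.844 to 1.17), and in cells without Il7r the ratio was 1.33 (1.18 to 1.49). Pim1 was higher in VISTA-KO in both, by 1.51 and 1.41.

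Clonal size separated the genes along the same line. The receptor contigs put 1034 WT CD8 cells (18.9%) and 291 VISTA-KO CD8 cells (6.77%) in the largest clonotype of their library, and 841 and 1254 in clonotypes seen once. Socs3 had 176 CPM in WT cells of single clonotypes, 64.8 in clonotypes of 2 to 9 cells, 38.7 in other expanded clonotypes and 50.8 in the largest, and in VISTA-KO 169.6, 74.0, 39.8 and 37.5. Pim2 was also highest in single clonotypes, with 134.5 CPM in WT and 109.7 in VISTA-KO, against 55.0 and 38.0 in the largest. Cish ran the other way, with 82.5 CPM in WT single clonotypes, 108 in clonotypes of 2 to 9 cells, 108 in other expanded clonotypes and 119 in the largest. In VISTA-KO these levels were 115 (107 to 123), 128, 137 (127 to 146) and 125 (111 to 141). The VISTA-KO intervals of single and other expanded clonotypes did not overlap, while those of single clonotypes and the largest did. Pim1 was higher in VISTA-KO than in WT in single clonotypes (381 against 230 CPM), but lower in the largest clonotype (152 against 219 CPM), which is a different clone in each library.

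Nr4a1, an early gene of T cell receptor signaling, marked cells with more Pim1. In CD8 cells with an Nr4a1 UMI, Pim1 had 362 CPM against 186 without one in WT and 442 against 246 in VISTA-KO, with ratios of 1.95 (1.77 to 2.14) and 1.79 (1.66 to 1.94). There were 852 such cells in WT and 1459 in VISTA-KO. Within them the VISTA-KO over WT ratio of Pim1 was 1.22 (1.11 to 1.35) and in the remaining CD8 cells 1.33 (1.23 to 1.43), both below the 1.47 of all thinned CD8 cells. Leaving out Nr4a1 cells without thinning, chosen after the data were seen, gave Pim1 ratios of 1.26 in CD8, 1.54 in conventional CD4 and 2.12 in regulatory cells.

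At the level of single cells some pairs of the genes were seen together and others were not. Among CD8 cells thinned to 2000 UMIs, those with a Socs1 UMI had 1.55 times the Cish level of those without in WT and 1.35 times in VISTA-KO, and those with a Socs3 UMI had 1.53 and 1.32 times the Socs1 level. CD8 cells with a Pim2 UMI had 1.83 times the Socs3 level of those without in WT and 1.47 times in VISTA-KO. Of the other inhibitor pairs in CD8 cells, Cish was higher in Socs2 cells (1.53 and 1.59 times), while Socs3 in Cish cells (0.951 in WT and 0.830 in VISTA-KO), Socs1 in Socs2 cells and Socs3 in Socs2 cells were at or below the level of other cells, the last pairs within counting error. Among conventional CD4 cells, those with Cish had 0.812 (0.666 to 0.985) of the Socs3 level of other cells in WT and 0.820 (0.725 to 0.927) in VISTA-KO. Socs2 cells of that kind likewise had less Socs3 (0.514 and 0.743 times) and more Cish (1.65 and 1.81 times). Regulatory cells with Cish did not have less Socs3. They had 1.37 (1.02 to 1.83) times the level of other regulatory cells in WT and 1.07 (0.854 to 1.35) times in VISTA-KO.

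Across 15 states in both libraries, 30 points that share library, depth and the 2 pools of mice, the genes whose log2 level ran closest to each of the 8 were found among 8095 genes. Cish ran closest to Ttc39c (r = 0.948), Sla (0.947) and AU020206 (0.942), and Socs1 to Neurl3 (0.955), Gbp2 (0.920) and Il27ra (0.919). Socs2 ran closest to Ccr4 (0.894), Skil (0.868) and Zbtb7b (0.861), the latter a factor of the CD4 lineage. Socs3 ran closest to Il6ra (0.930), the IL-6 receptor chain, then St6gal1 (0.915) and Kbtbd11 (0.887). Pim1 ran with Ifrd1 (0.932), Jund (0.931) and Anp32a (0.918), Pim2 with Rps24 (0.903), Rpl30 (0.894) and Bcl2 (0.891), Stat3 with Ciapin1 (0.855), Sri (0.853) and Ghitm (0.842), and Stat5a with Rel (0.826), Mia2 (0.798) and Aff1 (0.795). Between members, r was 0.71 for Pim1 and Socs2 and 0.67 for Pim1 and Stat5a, but -0.16 for Cish and Socs3, -0.25 for Pim1 and Pim2 and -0.76 for Pim2 and Stat3. The 30 points include Siglech cells. Over the 28 T cell points these values were 0.71, 0.81, -0.16, -0.30 and -0.79. The closest gene stayed the same there for Cish, Socs1, Socs2, Socs3 and Pim1. It became Bcl2 for Pim2, Eno1b for Stat3 and Arid4a for Stat5a, whose other closest genes changed as well. Other named genes also left the closest 3: Gbp2 and Il27ra for Socs1, Skil and Zbtb7b for Socs2, and Jund and Anp32a for Pim1. So did AU020206 for Cish and Kbtbd11 for Socs3.

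By the medians of the lists over all cells of the regulatory gate, the rest of the pathway differed less than the 8 genes did. The median log2 ratio was 0.39 over the 2 other SOCS and PIM genes past the level filter and 0.25 over the other STATs. It was 0.22 over the receptor chains, 0.12 over the other inhibitors and 0.01 over the Janus kinases. These list medians are not given here for regulatory cells without a CD8 UMI. In those cells Pim3 had 24.8 and 48.9 CPM, a ratio of 1.97, above the 1.83 of Pim1, and Stat5b had a ratio of 1.21. Among CD8 cells, none of the 4 Janus kinases, the 5 other STATs, the 15 detected cytokine receptor chains and the 8 detected other inhibitors of the pathway was past the bar of 0.5 in either direction. Of all genes in CD8 cells, 1.15% were higher and 0.709% lower, and none of the 8 genes passed the bar there either. In regulatory cells Jak2 was higher in VISTA-KO (69.2 and 106 CPM, 1.54), along with 4 of 16 receptor chains: Il2ra (135.5 and 204, 1.51), Il4ra (39.6 and 65.7, 1.66), Il6ra (17.1 and 33.3, 1.95) and Ifnar1 (98.7 and 164.5, 1.67). None of these lists had a gene counted as lower in regulatory cells, where 2.77% of all genes were higher and 2.44% lower. Il6ra was the 1 receptor chain of 16 past the bar in conventional CD4 cells (30.7 and 47.0 CPM, 1.53), and without CD8 UMIs its ratio was 1.22 (43.7 and 53.3 CPM), under the bar. In Siglech cells 1 of 15 receptor chains was higher and 4 were lower, with 7 of 15 above 0 and a median log2 ratio of -0.01 beside -0.02 over all genes, of which 3.73% were higher and 5.31% lower. In regulatory cells without a CD8 UMI the ratios were 1.42 for Jak2, 1.15 for Il2ra, 1.60 for Il4ra, 1.48 for Il6ra and 1.68 for Ifnar1. With 5 CPM added to each level, Il4ra and Ifnar1 were then past the bar of 0.5. Jak2 (83.6 and 119 CPM), Il6ra (24.0 and 35.5) and Il2ra were under it.

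Of the cytokines that act through these receptors, Ifng was the only one of 11 past the level filter in CD8 cells, with 209 CPM in WT and 333 in VISTA-KO. Other known STAT5 or STAT3 targets had median log2 ratios of 0.05, 0.12 and 0.20 in CD8, conventional CD4 and regulatory cells, with 8 of 13, 8 of 14 and 10 of 14 above 0. Of the 13 in CD8 cells none was past the bar as higher and 1 was as lower, Tnfrsf4 (138 and 73.5 CPM, 0.532), the costimulatory receptor OX40. Of 14 in conventional CD4 cells none was higher and 2 were lower, among them Myc (72.6 and 47.2 CPM, 0.651). In regulatory cells 2 of 14 were higher, Il2ra and Lta, and in Siglech cells 4 of 12 were lower. Genes of the immediate-early response, which T cell receptor stimulation and also tissue handling turn on, were higher in 6 of 15 cases in CD8 cells, 6 of 15 in conventional CD4 cells and 10 of 15 in regulatory cells. Those of CD8 cells were Nr4a1 (127 and 371 CPM, 2.92), Nr4a2 (146 and 242.5), Nr4a3 (31.9 and 78.8), Junb (1394 and 2007), Ier2 (319 and 493) and Btg2 (253.5 and 388). The median log2 ratio of that list was 0.33, 0.44 and 0.74 in the 3 T cell kinds and 0.28 in Siglech cells, beside 0.17, 0.32, 0.61 and -0.06 for the 8 genes, and the heat shock list, another sign of handling, had medians of 0.01, -0.11, -0.19 and -0.19. The immediate-early list thus moved with the 8 genes across the T cell kinds, and its part in their difference was not tested beyond the values without Nr4a1 cells.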

How the data were processed

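The deposited files give each gene's raw UMI counts by cell barcode, which the authors made with Cell Ranger 5.0.0 against mouse GRCm38 per the study's methods and the submitters' processing notes, and receptor contigs, used here for clonotypes and cells with 2 or more beta chains only. The labels describe a 3′ kit and the methods a 5′ receptor kit. Cells had at least 600 genes and under 30% mitochondrial UMIs. Siglech cells were left out of the 3 T cell kinds, and doublets were kept. UMIs were summed per kind and library and scaled to CPM, with exact Poisson intervals, and ratios with Clopper-Pearson intervals conditional on the total. For shares, and for values by receptor and by pairs of genes, cells were thinned to 2000 UMIs, and shallower cells (290 WT and 186 VISTA-KO CD8, 133 and 158 conventional CD4, 45 and 51 regulatory, 1 and 1 Siglech) were left out. Log2 ratios used a pseudocount of 5 CPM. With 1 library per genotype no test was run. States take the first match in a fixed order and need 50 cells per library. Named genes were the 8 genes, the 3 genes with the highest r to each, list genes past the fold in CD8 cells, Stat5b and Pim3, while those named for the other kinds were chosen after their values were seen. The 8 genes and the lists were chosen with earlier results of these data known. The values of 1 gene of the lists are not reported here. The steps were checked on simulated data. Python 3.11.15, numpy 2.4.6, scipy 1.17.1, pandas 2.3.3 and matplotlib 3.10.9 were used.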

Additional observations from a re-analysis of the deposited data

Results flagged for a closer look

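Over the whole gates, Socs2 differed in direction between kinds of cells. Set on the log2 scale, VISTA-KO over WT was below 0 in CD8 cells and above 0 in the CD4 kinds, with counting intervals on opposite sides of a ratio of 1, so that conventional CD4 and CD8 cells stood 0.60 apart and regulatory and CD8 cells 1.06 apart. There is 1 library per genotype, and the difference was not tested. In CD8 cells Socs2 was under 20 CPM in both libraries. Its ratio there ran from 0.544 without Nr4a1 cells to 1.04 without UMIs of the other kind and thinned to 2000 UMIs. At that last setting the ratio in conventional CD4 cells was also 1.04, so these 2 kinds did not stand apart. A single WT CD8 cell held 36 of the 417 Socs2 UMIs, which the counting interval does not cover. The share of CD8 cells with a Socs2 UMI was nearly level, at 1.73% in WT and 1.60% in VISTA-KO thinned, and 4.27% and 4.35% unthinned. The direction in CD8 cells is therefore not settled, nor is the gap between conventional CD4 and CD8 cells.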

How the results depend on the processing

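No paired analysis was possible because there is 1 library per genotype. The counts of genes below are given without the share of all genes at the same setting. No gene past the bar with the gates as reported changed direction. Ratios near 1 fell on either side of 1 between settings. These included Stat3 in each T cell kind, Stat5a and Socs2 in CD8 cells and Pim2 in regulatory cells. In Siglech cells ratios away from 1 also changed sides. Socs1 there ran from 0.627 without Mki67 cells to 4.59 in cells of 2000 to 6000 UMIs. Cish there had a ratio of 0.786 with the gates as reported and 1.61 thinned. In CD8 cells the count of the 8 genes higher in VISTA-KO went from 0 to 1, Pim1, without UMIs of the other kind, without the largest clonotype, with equal weight of cells, thinned, without Mki67 cells, centered on the median, thinned without UMIs of the other kind, and in cells of 2000 to 6000 UMIs, and to 3 at a log2 bar of 0.25. The CD8 median was 0.10 thinned and 0.10 thinned without UMIs of the other kind. In conventional CD4 cells the count was 2 with gates of 2 UMIs and without cells with 2 beta chains, 5 at a bar of 0.25 and 0 at a bar of 1, and the median was 0.19 thinned without UMIs of the other kind. In regulatory cells the count was 3 without CD8 UMIs, the same when these were also thinned, and 3 without Nr4a1 cells, and 1 in cells of 2000 to 6000 UMIs and at a bar of 1. Regulatory medians were 0.43 without CD8 UMIs, 0.38 when also thinned, 0.54 thinned, 0.48 with equal weight of cells, 0.45 without Mki67 cells, 0.49 at the state shares of WT, 0.49 without Nr4a1 cells and 0.32 in cells of 2000 to 6000 UMIs. In Siglech cells the higher count was 3 thinned, 3 thinned without RNA of the other kind, 3 in cells of 2000 to 6000 UMIs, 1 without cells with RNA of other types, 1 without Nr4a1 cells and 2 at a bar of 0.25, and the lower count was 1 without Mki67 cells, 1 without Nr4a1 cells and 2 at a bar of 0.25. The causes of these changes were not tested, and many of the settings also take fewer or shallower cells. The settings without Nr4a1 cells, of 2000 to 6000 UMIs, thinned without the other kind and without the 144 shared barcodes were chosen after the data were seen, and the last moved no count or median.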
